A study of Mus musculus with 3 samples.

Results

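The 524 peaks described here were peaks of HIF1α chromatin immunoprecipitation and sequencing (ChIP-seq) that came from 2 merged calls and lay deep inside genes. The full list, merged by the authors and placed on mm10, has 17289 peaks. A peak was kept when it lay on chromosomes 1 to 19, X or Y, its name ended in 2, its centre was inside a RefSeq gene of any biotype and it was more than 1 kb from the ends of every gene. The peaks were thus chosen by 2 measured values, the number of merged calls and the position of the centre, and both are given only as a description. Of 1989 peaks of 2 calls, 524 (26.3%) were deep inside genes, 1138 (57.2%) lay within 1 kb of a gene end and 327 (16.4%) lay between genes.

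The list was made from 2 HIF1α pulldowns and 1 input, all from hearts of wild-type Black-Swiss mouse embryos at stage E12.5. The pulldowns used a rabbit antibody against HIF1α and the input used no antibody. Whether the pulldowns came from separate pools of hearts is not stated in the labels, and no heart without HIF1α was analysed here. The list holds 1 score per merged peak and no value per library, so read depth is unknown, no value below has a replicate error and no test between samples could be made. It holds no expression values, so the tissue label was not checked against marker genes.

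HIF1α is the subunit of hypoxia-inducible factor 1 whose level follows oxygen. In low oxygen it escapes hydroxylation and degradation, pairs with ARNT and binds DNA at sites built on a short core, ACGTG or GCGTG, which lie at promoters and also inside genes. Its known targets raise glucose uptake and glycolysis, export lactate, form blood vessels and restrain HIF1α itself. A gene's span in RefSeq runs to the ends of its longest transcripts, so a gene can hold further transcript starts well inside that span.

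Some of the peaks deep inside genes lay at or near such internal starts. Starts were used on all chromosomes except the chromosome named in the processing section below. That chromosome held 9 of the peaks. Of the other 515 peaks, 107 (20.8%, exact 95% interval 17.4 to 24.5%) were centred at most 1 kb from an annotated start, against 261 of 4893 (5.33%, interval 4.72 to 6%) of the 1-call peaks deep inside genes. The start belonged to a gene that holds the peak in all 107 cases, and 104 of the holders were protein-coding. The centre was within 100 bp of the start for 45 of them. The label "deep inside genes" therefore describes the gene's outer ends and not its starts. Starts were listed for 27025 genes, while 49599 genes were used. Of the 408 peaks farther than 1 kb from a start, 283 (55% of the 515, interval 50.5 to 59.3%) were over 10 kb from every listed start. The longest host of 309 of the 408 had a listed start. Peaks at unlisted starts could not be counted. The intervals cover counting error only.

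The sequences under 33 of these peaks could be read, because each lay whole inside a RefSeq promoter window of build GRCm38.p6, the same build as mm10. A window covers 250 bases before and 50 after a start. The 7 of these 33 peaks with a score of 10 or more are shown because they are the highest-scoring peaks read at a start inside a gene. Each is written along the transcript, 5′ to 3′, and capitals mark every ACGTG or GCGTG on either strand, where CACGT and CACGC are the same cores read on the other strand.
Myo1h, chr5:114356712-114356828, plus strand: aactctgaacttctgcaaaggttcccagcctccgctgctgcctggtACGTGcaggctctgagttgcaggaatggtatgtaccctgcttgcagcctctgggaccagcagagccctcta
Ldha, chr7:46845723-46845835, plus strand: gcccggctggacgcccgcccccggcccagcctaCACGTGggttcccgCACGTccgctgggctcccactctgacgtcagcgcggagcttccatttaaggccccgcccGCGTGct
Mettl9, chr7:121034371-121034471, plus strand: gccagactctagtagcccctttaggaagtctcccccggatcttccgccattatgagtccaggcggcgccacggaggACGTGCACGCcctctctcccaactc
Ppp1r3g, chr13:35967842-35967942, plus strand: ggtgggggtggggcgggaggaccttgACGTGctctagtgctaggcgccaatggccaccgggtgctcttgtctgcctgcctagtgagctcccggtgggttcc
Aldoa, chr7:126799321-126799431, minus strand: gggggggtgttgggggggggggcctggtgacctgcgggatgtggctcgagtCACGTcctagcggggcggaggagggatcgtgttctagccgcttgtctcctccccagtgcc
Tob1, chr11:94211229-94211348, plus strand: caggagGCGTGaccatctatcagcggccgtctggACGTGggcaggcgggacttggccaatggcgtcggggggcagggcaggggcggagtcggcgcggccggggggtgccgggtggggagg
Trmo, chr4:46389448-46389567, minus strand: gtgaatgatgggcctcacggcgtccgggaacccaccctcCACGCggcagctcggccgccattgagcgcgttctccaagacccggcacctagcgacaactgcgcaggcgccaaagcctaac

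All 7 sequences held the core. At Ldha, the lactate dehydrogenase gene, the peak scored 30 and its centre was 25 bp before a start, although it was 3505 bp from the end of the gene's span. It held 4 matches, and a pair of them overlap as CACGTG, the form that MYC and clock factors also read. At Aldoa, which encodes aldolase A, the peak scored 17, its centre was 122 bp before a start, and the single match lay 2 bp from the centre. At Ppp1r3g, which encodes a subunit that directs protein phosphatase 1 to glycogen, the peak scored 18 and was 14 bp before a start. At Tob1, an antiproliferative gene, the peak scored 14 and was 166 bp before a start. The peaks at Mettl9, a histidine methyltransferase gene, and Trmo, a tRNA methyltransferase gene, scored 24 and 12. Myo1h, which encodes an unconventional myosin, had the highest score of the 33, 31, at a start in the last part of the gene, 89.6% of the way along its span.

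Lower-scoring peaks at internal starts did and did not hold the core. Of the following sequences, that of Rbpj, which encodes the DNA-binding factor of the Notch pathway, had a score of 4 and held 1 match 17 bp from the centre. Those of Ube4b, a ubiquitin ligase gene with a score of 8, and Tnni1, the slow skeletal troponin I gene expressed in the fetal heart, with a score of 4, held none.
Rbpj, chr5:53590339-53590450, plus strand: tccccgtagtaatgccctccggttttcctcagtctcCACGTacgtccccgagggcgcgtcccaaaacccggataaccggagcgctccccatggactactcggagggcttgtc
Ube4b, chr4:149426706-149426808, minus strand: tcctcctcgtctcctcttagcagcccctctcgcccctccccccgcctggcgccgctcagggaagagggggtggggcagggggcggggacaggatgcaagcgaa
Tnni1, chr1:135799195-135799358, plus strand: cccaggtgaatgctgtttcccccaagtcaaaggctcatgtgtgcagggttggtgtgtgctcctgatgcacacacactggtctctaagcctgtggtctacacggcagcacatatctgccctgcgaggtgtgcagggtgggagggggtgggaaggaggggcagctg

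In all, 23 of the 33 sequences (69.7%, interval 51.3 to 84.4%) held ACGTG or GCGTG on either strand. ACGTG was present in 18, GCGTG in 15 and both in 10. The share was 278 of 417 (66.7%, interval 61.9 to 71.2%) in 2-call peaks at gene ends that lay whole in a window, so the interval for peaks at internal starts takes in that value. It was 34 of 84 (40.5%, interval 29.9 to 51.7%) in 1-call peaks deep inside genes, and 307 of 737 (41.7%) in 1-call peaks at gene ends. Peaks of 1 call are narrower than the 33, whose median length was 118 bases, so they hold fewer places for a match. In the same 118 bases of all 32851 windows, centred 61 bp before the start, the share was 24.6%. The median content of G and C was 66.7% in the 33 sequences, 66.2% in those at gene ends and 54.2% over all windows, and its part in these shares was not tested.

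**Figure D1:**
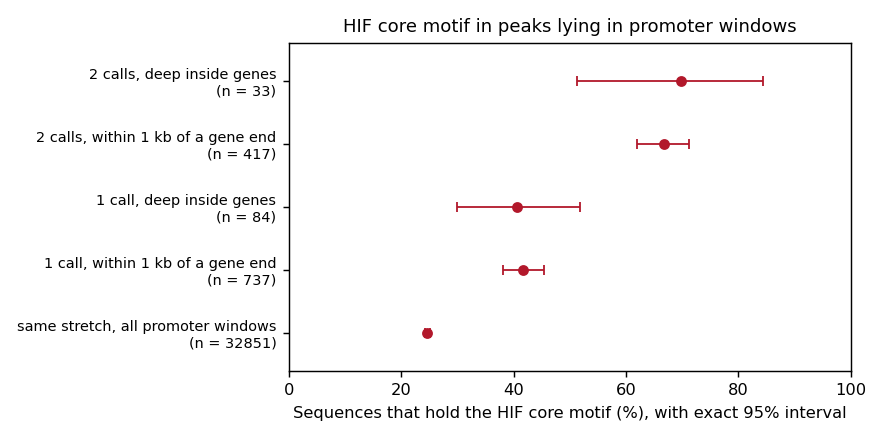
Share of sequences that hold the HIF core on either strand (x axis, percent) in 5 sets, with exact 95% intervals as bars and the number of sequences beside each name. The 33 peaks deep inside genes stand at 69.7% and 2-call peaks at gene ends at 66.7%, above the 1-call sets at 40.5% and 41.7% and all windows at 24.6%.

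The distance from the centre to the nearest match had a median of 17 bp in the 23 sequences with a match and of 17 bp at gene ends. A match can lie only inside its peak, and these distances were not compared with an even placement. By score, 7 of 7 sequences held the core at scores of 10 or more (interval 59 to 100%), 9 of 15 (60%) at scores of 5 to 9 and 7 of 11 (63.6%) at lower scores. The GC box GGGCGG, read by SP1, was in 16 of 33 (48.5%) and in 26.2% of all windows. CCAAT, read by NF-Y, was in 8 (24.2%), against 21.1% of all windows. CCGGAA, read by ETS factors, was in 7 (21.2%, interval 8.98 to 38.9%), against 7.96%. TGACG, part of the site of ATF and CREB factors, was in 8 (24.2%), against 11.5%. The intervals for CCAAT and TGACG, both 11.1 to 42.3%, include the share of all windows. In 2-call peaks at gene ends the shares were 49.4% for GGGCGG, 11% for CCAAT, 25.9% for CCGGAA and 15.3% for TGACG. AP-1's TGANTCA was in none of the 33, which allows a share of up to 10.6%, against 3.38% of all windows. For CACGTG (1 of 33), AGATAAG (1), GGAATG (3), AGGGGGC (3), GCATGCG (1) and AAGATGG (2) the counts were 3 or fewer. All were searched on both strands, and a match is a stretch of letters and not a shown site.

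The scores of peaks deep inside genes were close to those at gene ends. The score is the authors' own whole number, with no stated scale, and is used only to describe and rank peaks within this list. The median was 4 (interval 4 to 5) deep inside genes, 4 (interval 4 to 5) at gene ends and 4 (interval 3 to 4) between genes. Scores of 10 or more were reached by 56 of 524 peaks deep inside genes (10.7%, interval 8.17 to 13.7%), 118 of 1138 at gene ends (10.4%, interval 8.66 to 12.3%) and 23 of 327 between genes (7.03%, interval 4.51 to 10.4%). At the low end, 37 (7.06%) had the lowest score of 2, against 21 (1.85%) at gene ends and 57 (17.4%) between genes. Among 1-call peaks deep inside genes, 5 of 5062 (0.0988%) scored 10 or more and 3169 (62.6%) scored 2. These differences were not tested, since peaks of 1 list are not replicates and the number of calls chose the members.

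**Figure D2:**
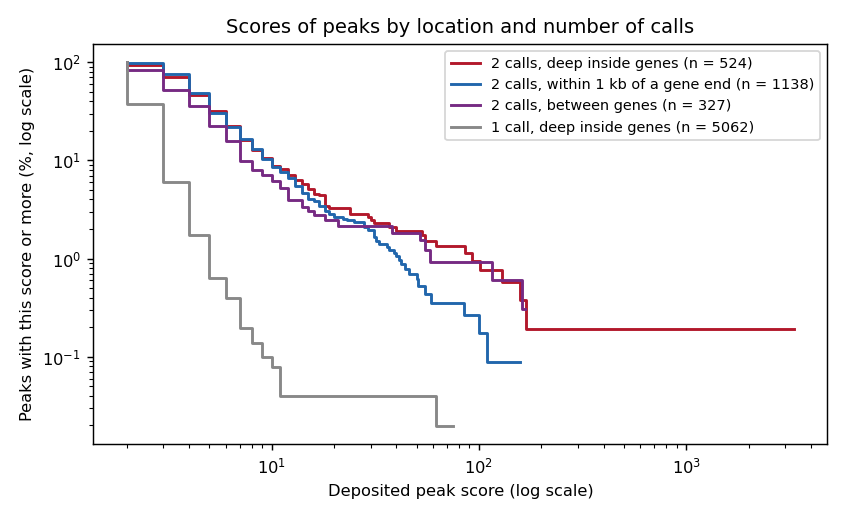
Share of peaks at or above each score (y axis, percent, log scale) against the deposited score (x axis, log scale) in 4 classes. The curve of 2-call peaks deep inside genes follows that of gene ends down to 10.7% and 10.4% at a score of 10, and ends at 3315; the 1-call curve is at 0.0988% there.

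The 4 highest scores belonged to peaks over 20 kb from any gene end. The peak inside Chl1, which encodes a neural cell adhesion molecule, scored 3315 and was 39.2 kb from any gene end. It lay on chromosome 6 from 103649152 to 103649252 and was no wider than a peak of 1 call. The next peak scored 169, inside the lncRNA gene Gm36876, 61.1 kb from the Wnt pathway gene Axin2. A score of 157 lay inside both Cmss1 and Filip1l, 38.3 kb from the end of Filip1l. Cdk8, which encodes a kinase of the Mediator complex, held a peak of score 129, 30.5 kb from its end. The lncRNA gene F630040K05Rik held the next highest, 2.3 kb from its end and 2702 bp from the protein-coding gene 1600014C23Rik, and a second peak of score 5 lay 11.6 kb away in the same gene.

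Further peaks of the 15 highest lay in genes with several roles. Zc3h7a, a zinc finger gene, held a peak of 93 that was 7.5 kb from its end. Pnrc1, a nuclear receptor coactivator gene of 3.37 kb, held one of 86. Camk1d, a calcium-dependent kinase gene, held one of 62 at 61.8 kb from any end, and Mical2, whose enzyme oxidises actin, held one of 29 at 56.9 kb. The peak of score 37 in the lncRNA gene Gm31251 was 2264 bp from Myh7, a myosin heavy chain gene of cardiac muscle. Mappability and repeats at these peaks were not examined, and no input level was used.

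**Figure D3:**
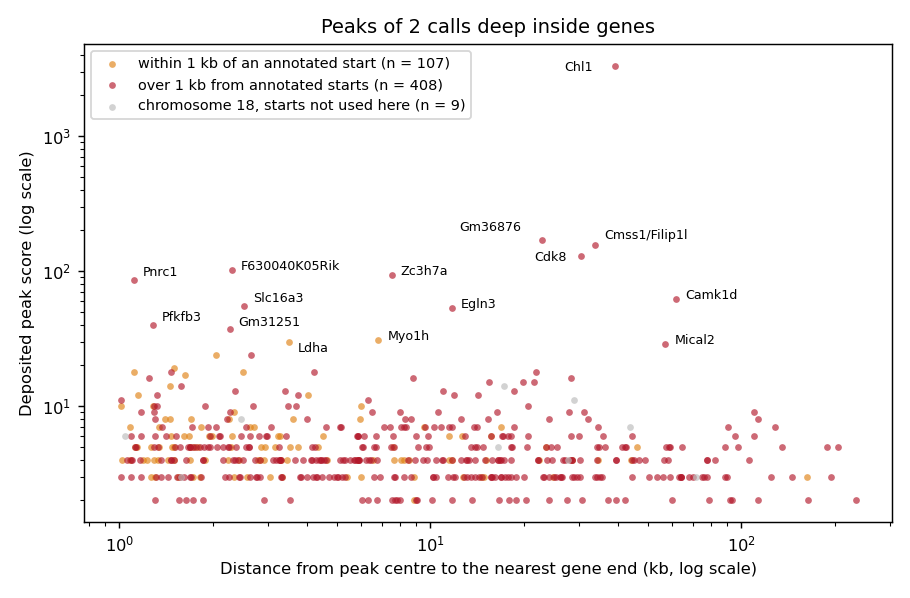
Score (y axis, log scale) of each of the 524 peaks against the distance from its centre to the nearest gene end (x axis, kb, log scale), with the hosts of the 15 highest scores named. Orange points lie within 1 kb of an annotated start (107) and red points over 1 kb from every listed start (408). Grey points lie on chromosome 18 (9), and Chl1 stands alone at 3315.

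Of the 56 peaks with scores of 10 or more, 42 lay in protein-coding genes and 14 in lncRNA genes, and 11 were over 20 kb from every gene end. Genes of the hypoxia response or glycolysis held 8 of these 56 (14.3%, interval 6.38 to 26.2%), 8 of the 468 with lower scores (1.71%) and 8 of the 5062 1-call peaks (0.158%). The hypoxia and glycolysis lists were chosen with earlier results of these data known, so these counts are a description.

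Distance to gene ends was set in part by the rule. The median distance to the nearest gene end was 6.69 kb (quartiles 2.35 to 19.1 kb) for the 524 peaks and 16.9 kb (quartiles 6.26 to 45.5 kb) for 1-call peaks deep inside genes. Within 10 kb lay 307 of 524 (58.6%, interval 54.2 to 62.8%) and 1834 of 5062 (36.2%, interval 34.9 to 37.6%). Between 1 and 2 kb lay 109 peaks, of which 17 (15.6%, interval 9.36 to 23.8%) scored 10 or more. The share was 13% between 2 and 5 kb, 7.65% between 5 and 20 kb and 11.2% between 20 and 50 kb. Beyond 50 kb lay 50 peaks, of which 2 (4%, interval 0.488 to 13.7%) scored so high. The intervals of the nearest and farthest bands overlap. The peaks farthest from any gene end were inside Lrrc4c, a synaptic adhesion gene (233 kb, score 2), Fat3, an atypical cadherin gene (205 kb, score 5), and Wwox, an oxidoreductase gene (194 kb, score 3). Just inside the 1 kb limit were peaks at Gm40325 (1006 bp, score 11), Prrt3 (1008 bp, score 3) and Mpp2 (1010 bp, score 10). Just outside it were peaks at B3gnt9 (1000 bp, score 3), Gm34296 (991 bp, score 5) and Ascl2 (988 bp, score 3).

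Along the host gene, the peaks leaned to the side of its start. Strand was listed for the hosts of 416 of the 524 peaks, the longest host being used where a peak lay in several genes. Of these, 158 (38%, interval 33.3 to 42.8%) lay in the first of 4 equal parts, where an even spread would put 25%, and 98 (23.6%), 81 (19.5%) and 79 (19%) lay in the next parts. For 1-call peaks the share in the first part was 941 of 3838 (24.5%, interval 23.2 to 25.9%). Without the peaks within 1 kb of a listed start, the share in the first part was 90 of 309 (29.1%, interval 24.1 to 34.5%), against 804 of 3579 (22.5%, interval 21.1 to 23.9%) of the 1-call peaks, and the interval for the peaks of 2 calls then includes 25%.

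**Figure D4:**
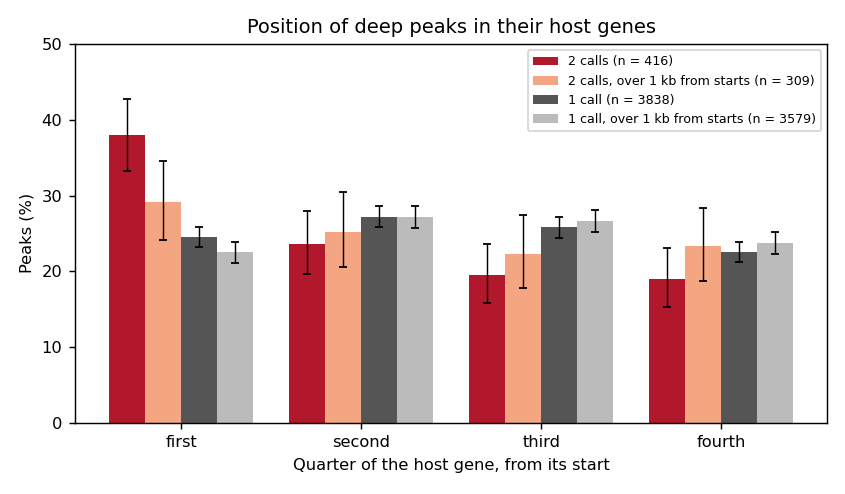
Share of peaks (y axis, percent, from 0) in each of 4 equal parts of the host gene from its start (x axis), with exact 95% intervals as error bars. The bar for the first part is 38% for 2-call peaks and 29.1% without those near listed starts, against 24.5% and 22.5% for 1-call peaks.

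Most hosts were protein-coding and long. The longest host was protein-coding for 436 peaks (83.2%), an lncRNA gene for 81 (15.5%) and a pseudogene for the other 7, and 25 peaks lay inside 2 genes at once. Of 88 peaks whose host was not protein-coding, 15 (17%) were within 5 kb of the end of a protein-coding gene and 30 were over 50 kb from any.

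Of 21775 protein-coding genes, 429 held a peak, so the background share was 1.97%, or 2.23% of the 19218 over 2 kb long, the length that the rule requires. Their median length was 70.8 kb, against 17.2 kb for all protein-coding genes. The share of holders was 0.415% of genes of 2 to 10 kb, 1.46% of 10 to 30 kb, 2.78% of 30 to 100 kb, 5.35% of 100 to 300 kb and 12.9% of longer genes. Per Mb of gene, however, the number was 0.743 for genes of 2 to 10 kb and 0.245 for those over 300 kb. For the lists below, the length class given is that of the list's median gene length. Single genes of a list can lie in other classes, and no list share was matched for length gene by gene. A 2-call peak at an own end was found in 17 of the 429 holders (3.96%, interval 2.33 to 6.27%) and in 1180 of the 19218 genes (6.14%, interval 5.8 to 6.49%), and these intervals overlap.

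A few genes held more than 1 peak. The transcribed pseudogene Speer4cos (scores 3 to 6) and the protein-coding gene 9530057J20Rik (scores 2 to 5) held 3 each, and 16 genes held 2. Kdm6b, which encodes a demethylase of histone H3, held peaks of score 18 and 6 that lay 1.3 kb apart. Those of Nfix, a nuclear factor I gene, scored 9 and 4 and lay 48.5 kb apart, and those of Mical2 scored 29 and 4, 55.8 kb apart. Chromosomes 1 to 19 carried 9 to 53 peaks each, X carried 7 and Y carried 1.

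Genes of glycolysis held deep peaks in 7 of 29 cases (24.1%, interval 10.3 to 43.5%), against the background of 1.97%. The median length of the list's genes was 22.8 kb, a class in which 1.46% of genes held one. The highest was at Pfkfb3, whose enzyme makes an activator of phosphofructokinase, with a score of 40 on chromosome 2 (11503237 to 11503347), 31.9 kb from the end of the gene and 1202 bp from a start. It also lay inside Gm52500, and the nearest end of any gene was 1282 bp away. Pkm (pyruvate kinase) held a peak of 24, Gapdh one of 18 that was 412 bp from a start, and Ldha and Aldoa are described with their sequences. Pfkm, the muscle phosphofructokinase gene, held one of 4 that was 135 bp from a start, and the glucose transporter gene Slc2a3 one of 4 that was 33.4 kb from its end. A 2-call peak at an own end was found in 12 of the 29 genes, 2 of the 7 holders among them, so 17 had a peak of either kind. With annotated starts counted as gene ends, the number of holders was 3, and it was 4 at a distance of 2 kb. Slc2a3 was among these 3 and had no listed start.

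Genes of the hypoxia response held deep peaks in 8 of 38 cases (21.1%, interval 9.55 to 37.3%), against the background of 1.97%. The median gene length was 23.8 kb, a class in which 1.46% of genes held one. Some holders were longer, such as Rora at 735 kb, a class in which 12.9% held one. Slc16a3, which encodes a lactate exporter, held a peak of score 55 on chromosome 11 (120950944 to 120951051), 2513 bp from its end and 1930 bp from a start. Egln3, whose prolyl hydroxylase marks HIF1α for degradation, held one of 53 at 47.2% of the way along the gene, 11.7 kb from its only listed start. Vegfa, a growth factor gene for blood vessels, held one of 10, and Bnip3, a mitophagy receptor gene, one of 9. Ak4 (8, a mitochondrial adenylate kinase), Rora (7, a nuclear receptor), Mxi1 (6 and 3, an antagonist of MYC) and Car12 (5, a carbonic anhydrase) made up the rest, and those of Ak4 and Car12 were 392 and 94 bp from a start. At own ends, 24 of the 38 genes had a 2-call peak, and Bnip3, named here after its values were seen, was the holder that had both. At a distance of 5 kb the number of holders was 3.

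Among genes of the HIF machinery, 2 of 14 held a deep peak (14.3%, interval 1.78 to 42.8%, median gene length 38.8 kb, a class in which 2.78% held one). The interval includes that share and the background of 1.97%. The 2 holders were Pkm, which is also on the glycolysis list, and Hif3a, with a score of 8 at 2219 bp from its start. Egln1, Hif1a, Epas1, Pfkfb4 and the histone demethylase gene Kdm4c held no peak of any kind inside their spans. Peaks just outside the spans, such as those before a start, are not part of that count. Arnt held a 2-call peak of score 4 and the hexokinase gene Hk1 one of 9, both within 1 kb of a gene end.

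Clock and MYC network genes held deep peaks in 4 of 25 cases (16%, interval 4.54 to 36.1%), with a median gene length of 24.2 kb, a class in which 1.46% of genes held one. The number was 2 at a distance of 2 kb, 2 with annotated starts counted as gene ends and 1 at 5 kb. The 4 genes were Nfil3 (score 8), a repressor of clock genes, the period gene Per1 (5), Dbp (5), which encodes a clock-controlled activator, and Arntl (4), which encodes a partner of CLOCK. The peaks of Nfil3 and Arntl were 411 and 372 bp from a start. The list of mTOR, AMPK and insulin signalling gave 3 of 26 (11.5%, interval 2.45 to 30.2%), and the interval includes the 2.78% of its length class. The holders were Prkaa2 (8), a catalytic subunit of AMPK, Grb10 (5), an adaptor of insulin receptor signalling, and Insig2 (4), a regulator of sterol synthesis, whose peak was 1 bp from a start.

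The deep peaks of 2 calls in genes of the heart muscle had scores of 3 to 5. For sarcomere genes the count was 3 of 28 (10.7%, interval 2.27 to 28.2%), against 1.97% of all protein-coding genes and 1.46% of their length class (median 26.6 kb). They were Tpm1 (tropomyosin, score 5), Tnni1 (4) and Actn2 (α-actinin, 3). For calcium handling and ion channel genes it was 3 of 24 (interval 2.66 to 32.4%), namely the potassium channel gene Kcnq1 (4), the kinase gene Camk2d (4) and the ankyrin gene Ank2 (3), with a median gene length of 173 kb, a class in which 5.35% of genes held one, a value within the interval. Ryr2, the calcium release channel gene, held 5 peaks of 1 call with scores of 2 or 3 and none of 2 calls, and Ttn, the titin gene, held 1 peak, of score 4 and 1 call. Cardiac transcription factors held none in 30 cases. The interval reaches 11.6% and takes in the 1.46% of their length class (median 17.3 kb). They had no 2-call peak at an own end either, and the same interval includes the 6.14% of protein-coding genes over 2 kb. The sarcomere, calcium handling, endothelial and blood lists also had none at own ends.

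Chromatin genes were represented in both lists. Histone methyltransferases and demethylases gave 3 of 30 (10%): Kdm6b, Prdm16 (scores 7 and 2), a zinc finger gene of that family, and Kmt2d (5), a methyltransferase gene for histone H3. Remodelling and acetylation gave 3 of 30, all histone deacetylase genes, namely Hdac5 (4), Hdac4 (3) and Hdac9 (3). The median lengths of these lists were 70.7 and 86 kb, classes in which 2.78% of genes held one, and both intervals (2.11 to 26.5%) include that value. The number for remodelling and acetylation was 6 at a distance of 500 bp and 1 at scores of at least 4, and that for methyltransferases and demethylases was 1 at a distance of 5 kb.

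Signalling and structural lists gave counts of 2 to 4, with intervals that all include the share of their length class, which was 5.35% for cytoskeleton and adhesion, 1.46% for cell cycle and p53 and 2.78% for the other lists. Notch, Wnt, BMP and TGF-beta genes gave 3 of 34 (8.82%, interval 1.86 to 23.7%), namely the Notch coactivator gene Maml3 (6), Rbpj (4) and the ligand gene Wnt5a (4). Receptors and angiogenic factors gave 2 of 30 (6.67%, interval 0.818 to 22.1%), Igf1r (4) and Tek (3), which encode receptor tyrosine kinases. Cytoskeleton and adhesion genes gave 4 of 35 (11.4%, interval 3.2 to 26.7%), namely Filip1l (157), the formin gene Diaph1 (11), the cadherin gene Cdh13 (5 and 3) and the ankyrin gene Ank3 (4). Matrix genes gave 2 of 28 (7.14%, interval 0.877 to 23.5%), the collagen gene Col12a1 (13) and the perlecan gene Hspg2 (5). Cell cycle and p53 genes gave 2 of 33 (6.06%, interval 0.743 to 20.2%), Cdk8 and the inhibitor gene Cdkn1a (4).

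Among lists for other cell types and tissues, neuronal genes held deep peaks in 5 of 30 cases (16.7%, interval 5.64 to 34.7%): Chl1, the transcription factor genes Tcf4 (7) and Sox5 (3), Kcnip4 (4), which encodes a potassium channel partner, and the adhesion gene Cntn5 (2). Their median length was 1135 kb, a class in which 12.9% of all protein-coding genes held one, and that value lies within the interval. The number was 3 at scores of at least 4. Endothelial markers gave 1 of 20 (Nfatc1, a transcription factor gene of endocardium, score 5) and liver genes 1 of 20 (Hnf4a, a nuclear receptor gene, score 5). Both intervals (0.127 to 24.9%) include the 1.46% of their length class. Blood markers (0 of 18), epicardial and smooth muscle markers (0 of 20), autophagy (0 of 25), the unfolded protein response (0 of 30), mitochondrial respiration (0 of 25) and glycogen metabolism (0 of 14) gave none, with upper limits of 11.6 to 23.2%. The shares of their length classes, 0.415% for epicardial markers, 2.78% for glycogen and 1.46% for the others, lie below these limits. At a distance of 500 bp, glycogen holders numbered 2 and autophagy holders 1. Ppp1r3g, described with its sequence, is not on the glycogen list. Over all 24 lists, 55 of 633 distinct genes (8.69%, interval 6.61 to 11.2%) held a deep peak. The background was 1.97% of all protein-coding genes and 2.23% of those over 2 kb. The lists were chosen with earlier results known and several hold long genes, and no share matched for length was computed for this total.

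**Figure D5:**
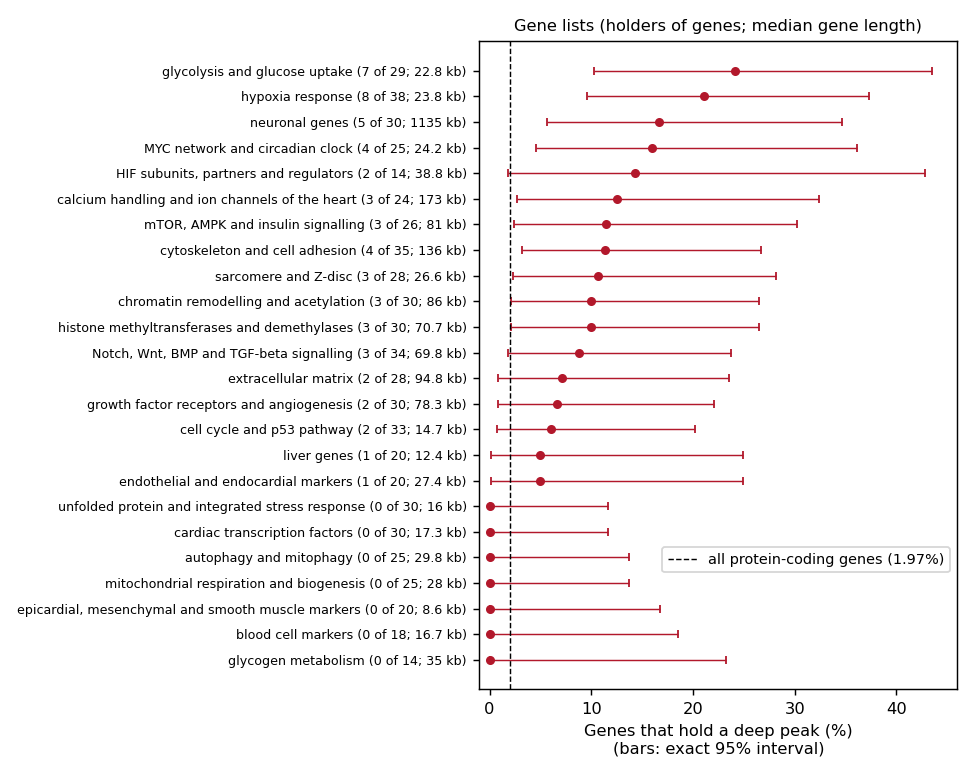
Share of genes in each of 24 lists that hold a deep peak of 2 calls (x axis, percent), with exact 95% intervals as bars and the count and median gene length beside each name. Glycolysis (24.1%) and hypoxia response (21.1%) stand highest, 7 lists stand at 0, and the dashed line marks the 1.97% of all protein-coding genes.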

How the data were processed

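The deposited file is 1 merged peak list; per the submitters' processing notes, Bowtie2 and HOMER were used on mm10. Per the file headers, the authors merged the calls of the 2 pulldowns, made against the same input. The score in the deposited file is a whole number without a stated scale. The sources used here give neither thresholds nor the merging rule. A name ending in 2 was read as 2 merged calls; the calls' sources are not marked.

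Positions were counted from 1. Genes came from RefSeq (GRCm38.p6): 49599 were used, without those below 3 Mb on chromosomes other than Y. Starts, strand and sequences came from the RefSeq promoter table, of which 32851 windows for 27025 genes were used; starts on chromosome 18 were not used here. Exons were not used. The motif search planned for all members was limited to 33 peaks lying whole in a window.

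Members and lists were chosen with earlier results of these data known. Genes named were hosts of the 15 highest scores, up to 4 per list by score, the 6 hosts with most members, the 3 farthest members, the peaks at the 1 kb limit and 14 fixed genes. Further holders in the lists, genes named for their sequences and neighbouring genes were chosen after their values were seen. Intervals are exact 95% Clopper-Pearson intervals (scipy 1.17.1), for medians from order statistics; no p-value was computed. Location classes were tested on simulated peaks. Alternatives covered distance, gene sets, whole peaks, scores and joined neighbours.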

Additional observations from a re-analysis of the deposited data

How the results depend on the processing

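No paired analysis was possible because the merged list holds no value per pulldown, and for the same reason no replicate could be left out. The median score stayed within its interval under all 11 alternatives. The HIF core share (69.7% of 33 peaks) was computed under 2 alternatives and stayed within its interval. It was 61.5% (interval 44.6 to 76.6%) when a stretch as wide as a 1-call peak was read around the centre. That stretch could be read in 39 peaks, so both the width and the set of peaks differed. The share was 68.8% in the 32 peaks with scores of at least 4. The number of members (524) fell to 300 at a distance of 5 kb, by construction, and listed holders (55) to 35. The share of 2-call peaks that were members (26.3%) became 31.6% at 500 bp, 20.9% at 2 kb, 15.1% at 5 kb, 23.9% with protein-coding genes only, 23.7% without predicted gene models and 21.0% with annotated starts counted as ends. The share within 10 kb of an end (58.6%) became 65.4%, 47.7% and 27.7% at 500 bp, 2 kb and 5 kb, 48.0% with protein-coding genes, 47.7% without predicted models, 64.0% at scores of at least 4, 49.3% with genes of curated transcripts and 52.3% with starts counted as ends. The share of protein-coding genes with a member (1.97%) became 2.36%, 1.55% and 1.15% at those distances, 2.28% without predicted models, 1.41% at scores of at least 4, 1.48% with starts as ends and 2.23% over genes above 2 kb. The share in the first part of the gene (38.0%) became 29.1% with starts as ends. The alternatives with curated transcripts or with starts as ends were chosen after seeing the data. Glycolysis holders (7) numbered 4 at 2 kb, 2 at 5 kb and 3 with starts as ends, and hypoxia holders (8) numbered 3 at 5 kb. Notch, Wnt, BMP and TGF-beta holders (3) numbered 5 at 500 bp, receptor and angiogenesis holders (2) 1 at scores of at least 4, and at 5 kb cell cycle holders (2) numbered 1 and HIF machinery holders (2) 0. Of 264 list counts under alternatives, 247 were within 1.5 times the count given, 13 were lower and 4 higher. The 247 include the 7 lists with no holder, where 0 against 0 counted as within the limit, so they overstate the stability of the other counts.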
